A study of Mus musculus with 18 samples.

Results

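The circadian clock genes Clock, Arntl, Per1, Per2, Cry1, Nr1d1, Nr1d2 and Dbp, together with their relatives in the clock's repressor loop Bhlhe40 and Bhlhe41, were measured in cultured mouse eosinophils. They make 10 of the 54232 genes counted in all 18 libraries. The 10 were chosen by name from results of these same libraries, using each gene's CPM, its count scaled to the library total, in every library and each stimulus against the unstimulated libraries counted in the same layout. Their values against unstimulated cells are therefore given as a description without p, and where the 10 are counted as called in such a contrast, nothing is read from the count. Eosinophils are granule-bearing white blood cells, and the study profiled their RNA after stimuli found in bacterial, type 1 and allergic, type 2 settings. Every group came from C57BL/6 mice carrying the NJ.1638 Il5 transgene, which raises interleukin-5 and expands eosinophils, so that the cells had formed under excess interleukin-5. The cells were washed from the peritoneal cavity, T and B cells were taken out with antibody-coated beads, and culture with the stimulus lasted 18 h. The sources used here give no age of the mice and no hour of collection, and though the paper speaks of biological replicates, it does not say whether these are separate animals or separate cultures.

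There were 6 groups of 3 libraries. Unstimulated libraries a to c were counted in the same layout as cells given heat-inactivated E. coli, cells given IFN-γ (interferon gamma) and cells given IFN-γ plus E. coli, and these 12 libraries held 1523808 to 2734041 counts on genes. Unstimulated libraries d to f shared their layout with cells given IL-4 (interleukin-4), and these 6 libraries held 3625036 to 6482289 counts. In each of the 12 libraries the highest count of any gene lay between 4089 and 4095, whereas in the 6 libraries of the IL-4 set it lay between 87377 and 191131. Levels were therefore compared within a set and not between sets. All levels are CPM of the gene counts after scaling by edgeR's TMM factors, called normalized CPM. A floor of 3 counts corresponded to 1.10 to 1.97 CPM in the 12 libraries and to 0.463 to 0.828 CPM in the IL-4 set. Floors and intervals cover counting error only. With a single collection time, neither rhythm nor phase was measured.

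Unstimulated library e, replicate 2 of libraries d to f, stood apart from its group. Its chi-square per gene was 23.7 against library d and 22.0 against library f, while libraries d and f differed from each other by 7.86. The same measure ran from 1.64 to 6.04 between replicates of every other group. Log2 fold changes of single genes with IL-4 are given with and without library e, as are the differences of the IL-4 response that were called.

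Markers of eosinophils were checked first, in CPM of each library's gene count. The summed level of 8 eosinophil genes was 5321, 6407 and 5576 CPM in the unstimulated libraries a–c, 5131, 4677 and 4956 CPM with E. coli, 5254, 4844 and 5639 CPM with IFN-γ and 4266, 3850.0 and 4161 CPM with IFN-γ plus E. coli. It was 5928, 6628 and 6081 CPM in libraries d to f and 5468, 5667 and 5509 CPM with IL-4. The most abundant of them was Alox15 or Ccr3 in every library, and 7 or 8 of the 8 exceeded 3 counts. The exception was Epx, the eosinophil peroxidase gene, which had at most 4 counts in any of the 12 libraries and 0 in 5 of them. Of the tested eosinophil genes, Siglecf and Il5ra fell and Gata1 rose with each of E. coli, IFN-γ and both. Prg2 also fell with IFN-γ and with both, Alox15 fell with both, and Adgre1 rose with IFN-γ. With IL-4 Siglecf, Il5ra and Prg2 rose while Ccr3 and Adgre1 fell. In the 12 libraries Alox15 had up to 3732 and Ccr3 up to 3576 counts, near the highest count of any gene, and the sums were not corrected for a ceiling of counts, so their differences between groups may be too small.

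Genes of other cells were present at lower summed levels. The 10 macrophage genes, led by Lyz2 or Csf1r, summed to 2042, 1659 and 1899 CPM in libraries a to c, 1065, 1027 and 1659 CPM with E. coli, 2122, 2009 and 2021 CPM with IFN-γ and 1604, 1864 and 2096 CPM with both. In the IL-4 set they summed to 3380.4, 3505 and 4496 CPM unstimulated and 2887, 2751 and 3209 CPM with IL-4, with Cd163 at 0 in 2 IL-4 libraries and 7 to 10 of the 10 above 3 counts over the series. The sum of every IL-4 library was thus below libraries d to f, and 2 of 3 E. coli libraries were below the rest of their set. The genes of this list did not move alike with IL-4: Csf1r, C1qb, Fn1 and Lyz2 fell, whereas Gata6, at 10.8, 11.3 and 10.4 normalized CPM in libraries d to f and 20.4, 15.5 and 14.0 with IL-4, and Timd4, at 55.0, 53.2 and 75.7 and 81.8, 103 and 80.1, were higher in every IL-4 library without being called. Mrc1 had the higher mean with IL-4, 8.30 ± 4.18 against 3.08 ± 2.62, in overlapping groups. With E. coli Timd4, Fn1 and Lyz2 fell, with IFN-γ Csf1r and C1qb rose and Gata6 fell, and with both C1qb rose. Mrc1 was at 0 in library b and 1 IFN-γ library, and Cd163 in 1 library given both. The 7 B cell genes, led by Ighm, summed to 241, 199 and 129 CPM in libraries a to c, 44.4, 49.7 and 78.3 CPM with E. coli, 96.8, 59.8 and 53.8 CPM with IFN-γ and 112, 126 and 115 CPM with both, and 4 to 6 of the 7 exceeded 3 counts. They summed to 25.9, 22.5 and 44.6 CPM in libraries d to f and 66.6, 61.3 and 73.9 CPM with IL-4, with Pax5 at 0 in libraries e and f. Pax5 or Ebf1 was also at 0 in 2 E. coli and 2 IFN-γ libraries. All 5 tested B cell genes fell with E. coli, 4 of 5 fell with IFN-γ, 0 of 5 were called with both and 3 of 4 rose with IL-4. Mast cell genes, 6 in number and led by Tpsb2, Cma1 or Cpa3, summed to 10.7, 8.32 and 8.14 CPM in libraries a to c and 32.8, 67.0 and 58.7 CPM with both stimuli, where Cma1 and Tpsb2 rose, Tpsb2 also with IFN-γ alone, and Mcpt4 stayed at 0. Over the other groups their sum ran from 6.17 to 35.4 CPM. The 6 neutrophil genes summed to 2.56 to 23.6 CPM, led by Ly6g or, in 1 IL-4 library, Elane, and Ly6g rose with IFN-γ and with both. The 6 T and NK cell genes, led by Cd3d, summed to 1.31 to 9.92 CPM with Cd3e at 0 in most libraries, and the 7 erythroid and platelet genes, led by Pf4 or Itga2b, summed to 415 to 797 CPM, with 4 of them higher and 2 lower with both stimuli and 3 lower with IL-4. Of the erythroid and platelet genes, Ppbp was higher with E. coli and with IFN-γ, and Pf4 was lower with IFN-γ. In these bulk libraries fewer cells of a type and less RNA per cell cannot be told apart.

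The mammalian clock is a feedback loop of transcription. CLOCK and BMAL1, the product of Arntl, bind DNA elements called E-boxes and switch on the Per, Cry, Nr1d and Dbp genes, and the PER and CRY proteins return to repress CLOCK and BMAL1. The DEC proteins, encoded by Bhlhe40 and Bhlhe41, compete at E-boxes, and the REV-ERB receptors, encoded by Nr1d1 and Nr1d2, repress Arntl and, in macrophages, inflammatory genes. In immune cells Bhlhe40 is known for shaping cytokine production and Bhlhe41 for its roles in B-1 cells and tissue macrophages.

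On the GRCm38 build, the activator genes are Arntl (ENSMUSG00000055116) on chromosome 7, 113207465-113314126, plus strand, and Clock (ENSMUSG00000029238) on chromosome 5, 76209868-76304792, minus strand. The period and cryptochrome genes are Per1 (ENSMUSG00000020893) on chromosome 11, 69095217-69109960, plus strand; Per2 (ENSMUSG00000055866) on chromosome 1, 91415982-91459324, minus strand; and Cry1 (ENSMUSG00000020038) on chromosome 10, 85131700-85185064, minus strand. The DEC genes lie on the same chromosome, with Bhlhe40 (ENSMUSG00000030103) on chromosome 6, 108660629-108666925, plus strand, and Bhlhe41 (ENSMUSG00000030256) on chromosome 6, 145858243-145865558, minus strand. The REV-ERB genes are Nr1d1 (ENSMUSG00000020889) on chromosome 11, 98767932-98775333, minus strand, and Nr1d2 (ENSMUSG00000021775) on chromosome 14, 18204054-18239127, minus strand. The output gene is Dbp (ENSMUSG00000059824) on chromosome 7, 45705088-45710203, plus strand. Per1 and Nr1d1 share chromosome 11, and Arntl and Dbp share chromosome 7. On the opposite strand, exons of another gene overlap Bhlhe41 by 1280 bases, Dbp by 539, Nr1d1 by 263, Bhlhe40 by 118 and Arntl by 33. Whether the counting kept the strands apart is not stated, so the counts of these genes may be misstated where exons are shared. Per1, Per2, Cry1, Nr1d2 and Clock have no such overlap.

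The activators overlapped between all groups of a set. Clock, the histone acetyltransferase partner of the pair, read 17.5, 10.1 and 16.5 normalized CPM in libraries a to c, which had no stimulus, 17.9, 20.1 and 11.4 with E. coli, 16.2, 17.9 and 16.3 with IFN-γ and 32.1, 19.2 and 10.6 with IFN-γ plus E. coli. Its values were 30.0, 16.4 and 15.9 normalized CPM in libraries d to f and 23.8, 25.1 and 14.0 with IL-4. Its largest log2 fold change against unstimulated cells was 0.42 ± 0.31 (SE) with both stimuli, where the libraries lay furthest apart. Arntl, which encodes BMAL1, read 10.8, 15.2 and 19.8 normalized CPM in libraries a to c, 15.5, 13.4 and 8.89 with E. coli, 14.6, 11.8 and 14.4 with IFN-γ and 12.4, 12.6 and 12.5 in the combined group. Its level was 9.44, 7.12 and 11.7 normalized CPM in libraries d to f and 11.03, 11.96 and 10.6 with IL-4. From highest to lowest mean the order was unstimulated, IFN-γ, E. coli and both, and no neighbours in it were separated. Its log2 fold changes were -0.25 ± 0.25 with E. coli, -0.17 ± 0.27 with IFN-γ, -0.28 ± 0.27 with both and 0.26 ± 0.25 with IL-4, or 0.073 without library e.

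Per1 is a period gene that also responds acutely to hormones and cyclic AMP. On the log2 scale it had the widest spread between groups among the 7 of these 10 genes tested in the 12-library set. It read 7.45, 5.07 and 8.26 normalized CPM in libraries a to c, which had no stimulus, and 11.8, 14.7 and 12.3 with E. coli. With IFN-γ it read 28.0, 39.5 and 43.8 normalized CPM, and with IFN-γ plus E. coli 27.8, 48.2 and 40.9. Every stimulated library lay above every unstimulated one, both IFN-γ groups lay above the E. coli group, and the groups with IFN-γ alone and with both overlapped. Means were 6.93 ± 1.66 (SD, n = 3), 13.0 ± 1.54, 37.1 ± 8.18 and 39.0 ± 10.4 normalized CPM in the order just given. The log2 fold changes were 0.87 ± 0.29 with E. coli, 2.36 ± 0.26 with IFN-γ and 2.46 ± 0.26 in the combined group. Per1 in the IL-4 set read 13.1, 19.1 and 17.0 normalized CPM in libraries d to f and 25.1, 19.8 and 23.6 with IL-4. These groups did not overlap, with a log2 fold change of 0.46 ± 0.20, or 0.58 without library e.

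Per2, the other period gene, read 13.8, 11.4 and 14.0 normalized CPM in libraries a to c, 17.1, 16.4 and 13.3 with E. coli, 10.1, 12.3 and 18.3 with IFN-γ and 17.5, 20.3 and 22.4 in the combined group. The group with both stimuli, at 20.1 ± 2.45 (SD, n = 3), lay above the E. coli and unstimulated groups and overlapped the IFN-γ group, while the other groups overlapped one another. Its log2 fold changes were 0.25 ± 0.23 with E. coli, 0.015 ± 0.25 with IFN-γ and 0.60 ± 0.24 in the combined group. Cry1, the cryptochrome that represses CLOCK and BMAL1 directly, read 28.7, 38.0 and 29.7 normalized CPM in libraries a to c, and 41.2, 37.8 and 29.6 with E. coli. It read 33.6, 36.9 and 48.4 with IFN-γ and 43.1, 44.9 and 62.0 with both. Again the group with both stimuli, at 50 ± 10.4 (SD, n = 3), was highest and overlapped the IFN-γ group alone. The log2 fold changes of Cry1 were 0.20 ± 0.19 with E. coli, 0.31 ± 0.20 with IFN-γ and 0.66 ± 0.19 in the combined group. Per2 read 11.4, 13.6 and 9.44 normalized CPM in libraries d to f and 14.1, 13.6 and 15.0 with IL-4, and Cry1 read 21.1, 33.3 and 21.0 and 21.1, 25.3 and 21.0. Cry1 in library e, at 33.3, was above all others of its set. With IL-4 the log2 fold change of Per2 was 0.31 ± 0.22, or 0.46 without library e, and that of Cry1 was -0.17 ± 0.21, or 0.10 without it.

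Bhlhe40, which encodes the repressor DEC1, read 439, 482 and 481 normalized CPM in libraries a to c, which had no stimulus, and 597, 553 and 520.4 with E. coli. It read 266, 291 and 356 with IFN-γ and 291, 298 and 355 with IFN-γ plus E. coli. The E. coli group, at 557 ± 38.5 (SD, n = 3), lay above the unstimulated group at 467 ± 24.6, and every library with IFN-γ lay below every library without it. The means with IFN-γ and with both, 304 ± 46.2 and 315 ± 35.3, did not differ beyond their spread. Against unstimulated cells the log2 fold changes were 0.26 ± 0.12 with E. coli, -0.62 ± 0.12 with IFN-γ and -0.57 ± 0.12 in the combined group. Of 5 tested B cell genes 4 were lower with IFN-γ, and their part in the values of Per1 and Bhlhe40 was not tested. Bhlhe40 had 1654 counts in the second E. coli library. Under a correction for a ceiling of 4096 codes per gene, chosen after seeing the data, its log2 fold change was -0.71 with IFN-γ and -0.66 with both. Among the IL-4 set's libraries it read 349, 555 and 377 normalized CPM in libraries d to f and 370.4, 414 and 357 with IL-4, where the highest value was that of library e. The log2 fold change with IL-4 was -0.17 ± 0.17, and 0.065 without library e.

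Bhlhe41, which encodes the closely related repressor DEC2, was near the floor in the 12-library set, with 6, 4 and 12 counts in libraries a to c, 2, 2 and 3 with E. coli, 4, 3 and 5 with IFN-γ and 5, 5 and 6 in the combined group. It did not pass the low-count filter there. Per count on genes, the ratio of the summed counts of libraries a to c over those with E. coli was 3.51 (95% interval 1.45 to 9.73), and that of both stimuli over E. coli was 3.62 (95% interval 1.41 to 10.4). Of the 22 counts of libraries a to c, 12 came from library c. In the IL-4 set Bhlhe41 had 56, 112 and 99 counts in libraries d to f and 7, 10 and 8 with IL-4. These were 15.6, 18.6 and 18.7 against 1.33, 1.66 and 2.07 normalized CPM. Every unstimulated library lay far above every IL-4 library, with means of 17.6 ± 1.77 (SD, n = 3) and 1.69 ± 0.372. The log2 fold change with IL-4 was -3.39 ± 0.28, and -3.36 without library e. Bhlhe41 passed the filter of the IL-4 set through its unstimulated libraries, with 3 of 3 of them and 1 of 3 IL-4 libraries over it. Its difference is therefore conditioned on the libraries where it was high. In the same comparison 4 of 9 tested macrophage genes were lower with IL-4 while Gata6 and Timd4 lay higher, and the summed B cell genes were higher, as given above, and their part in the value was not tested.

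Of the REV-ERB receptors, Nr1d2 was the more readily counted. It read 34.3, 29.2 and 30.6 normalized CPM in libraries a to c, which had no stimulus, and 16.3, 14.4 and 15.8 with E. coli. It read 34.7, 19.99 and 36.6 with IFN-γ and 20.4, 25.2 and 17.1 with both. The E. coli group, at 15.5 ± 1.00 (SD, n = 3), was lowest and apart from every other group, the group with both stimuli came next at 20.9 ± 4.05, and the IFN-γ and unstimulated groups overlapped. The log2 fold changes were -1.03 ± 0.21 with E. coli, -0.066 ± 0.21 with IFN-γ and -0.58 ± 0.22 in the combined group. Nr1d2 read 36.4, 51.7 and 39.5 normalized CPM in libraries d to f and 32.9, 38.9 and 30.6 with IL-4 in overlapping groups, and the log2 fold change was -0.32 ± 0.18, or -0.15 without library e. The B cell genes summed lower in the E. coli group than in libraries a to c, as did the macrophage genes, and their part in the Nr1d2 value was not tested.

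Nr1d1, the REV-ERB gene whose product is best known as a repressor of Arntl, had 2, 0 and 0 counts in libraries a to c, 5, 3 and 10 with E. coli, 0, 2 and 1 with IFN-γ and 1, 4 and 8 in the combined group. It failed the filter there. The counts with E. coli over libraries a to c gave a ratio of 8.05 (95% interval 1.93 to 71.6), and those with both a ratio of 9.22 (95% interval 2.09 to 84.2). The third library gave 10 of the 18 counts with E. coli and 8 of the 13 with both, and library a gave both of the unstimulated counts, so these ratios rest largely on single libraries. The IFN-γ and unstimulated groups were both at or under the floor, and no fold was taken between them. Nr1d1 was tested with IL-4, where it had 5, 19 and 13 counts unstimulated and 18, 24 and 14 with IL-4, which is 1.39, 3.15 and 2.45 against 3.42, 3.99 and 3.63 normalized CPM. These groups did not overlap, and the log2 fold change was 0.61 ± 0.41, or 0.88 without library e.

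Known REV-ERB targets of macrophages, a list of 7 genes of which 6 were tested, are given side by side with the receptors. With E. coli, Il6, Ccl2, Nlrp3 and Il1b rose, by log2 fold changes of 2.94, 1.18, 1.81 and 3.32, and Mmp9 and Il18 were not called. With IFN-γ, Il6, Mmp9, Nlrp3 and Il1b rose by 1.14, 0.78, 1.28 and 1.02, and Ccl2 and Il18 were not called. The Nlrp3 call was lost on leaving out library b, library c or the third IFN-γ library, with log2 fold changes of 1.21, 1.28 and 1.23. With both stimuli, Il6, Ccl2, Nlrp3 and Il1b rose by 4.62, 1.12, 2.98 and 4.45, and Mmp9 and Il18 were not called. With IL-4, where Nlrp3 and Il18 were not called, Il6, Ccl2 and Il1b rose by 2.24, 1.00 and 0.87, and Mmp9 fell by 2.37. Without library e the log2 fold changes of these 4 were 2.11, 0.85, 0.74 and -2.09. In each comparison 4 of 6 targets were called. Of all genes tested, 30.2% were called with E. coli, 31.6% with IFN-γ, 49.0% with both and 10.3% with IL-4. Whether the values of these targets relate to the receptors was not tested.

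Dbp, the activator of D-box genes that serves as the clock's output, had 8, 4 and 6 counts in libraries a to c, 1, 2 and 4 with E. coli, 5, 12 and 5 with IFN-γ and 5, 19 and 8 in the combined group. It had 7, 4 and 0 counts unstimulated and 6, 1 and 5 with IL-4, and it passed the filter of neither set. Its means ran, from highest, 6.45 ± 3.53 normalized CPM with both, 4.07 ± 1.81 with IFN-γ, 2.66 ± 0.275 unstimulated and 1.02 ± 0.840 with E. coli, and the libraries of the last pair of neighbours alone did not overlap. The ratio of summed counts was 2.87 (95% interval 1.15 to 8.14) for unstimulated over E. coli, 2.52 (95% interval 1.37 to 4.77) for both over unstimulated and 7.25 (95% interval 3.14 to 19.5) for both over E. coli. Of the 32 counts with both, 19 came from the second library, and of the 7 with E. coli, 4 came from the third, so these ratios rest largely on single libraries. With IL-4 over libraries d to f it was 1.08 (95% interval 0.435 to 2.69).

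**Figure D1:**
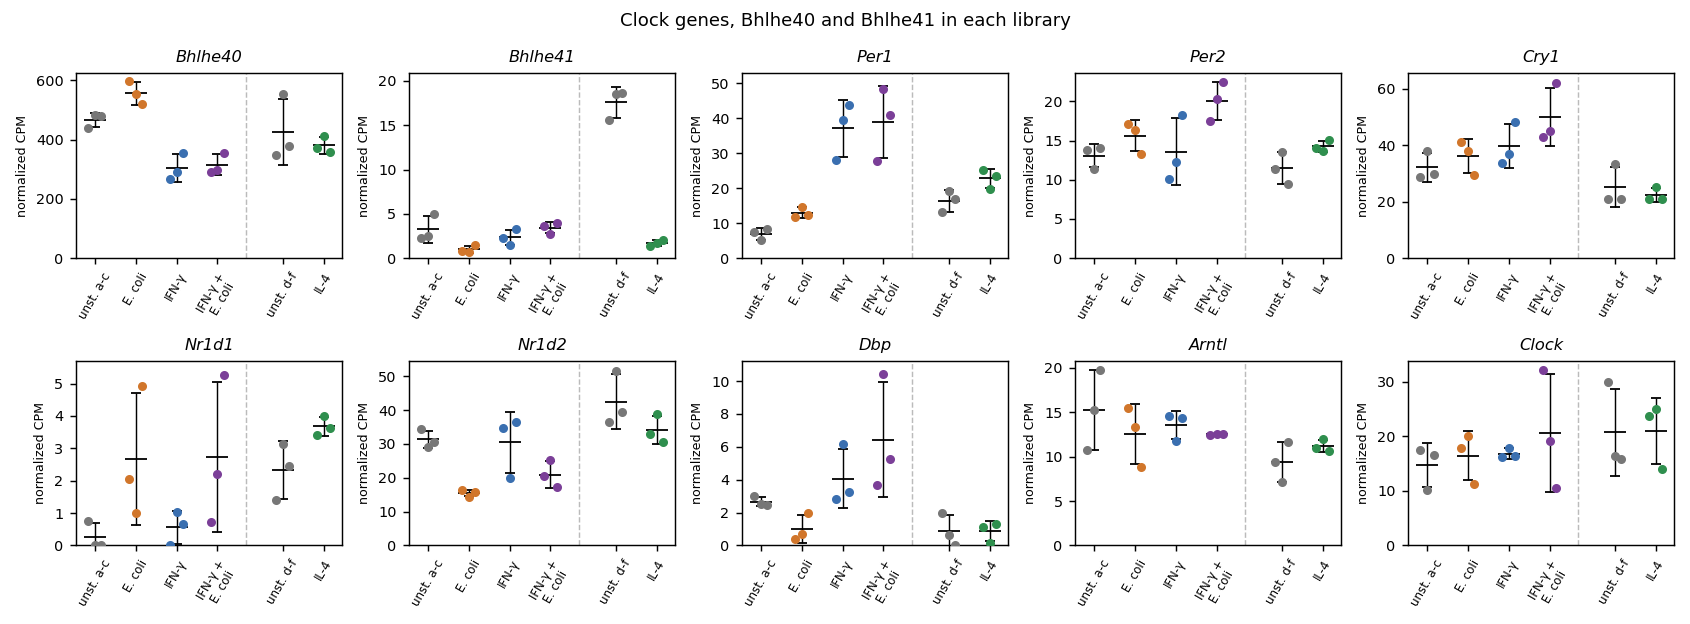
Normalized CPM (vertical axis, from 0) of each of the 10 genes in each library of the 6 groups (horizontal axis), with points for libraries and bars for the mean ± SD of 3 libraries; the dashed line parts the 2 sets. Per1 with IFN-γ, alone or with E. coli, sits between 27.8 and 48.2, above every library without IFN-γ in its set, and Bhlhe41 sits at 15.6 to 18.7 in unstimulated libraries d to f against 1.33 to 2.07 with IL-4.

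A gene is called here when its p from the quasi-likelihood test of edgeR, adjusted by the Benjamini-Hochberg method over all genes tested, was under 0.05. These tests measure the spread between these libraries. The comparisons with E. coli, IFN-γ and both share unstimulated libraries a to c, so they are set side by side and their overlap is not used. Of the 10 genes, 7 passed the low-count filter of the 12-library set and 9 that of the IL-4 set. With E. coli, 2 of 7 were called, Per1 higher and Nr1d2 lower, while 30.2% of all 9883 genes tested were called. The median log2 fold change was 0.20 against -0.024 over all genes. With IFN-γ, 2 of 7 were called, Per1 higher and Bhlhe40 lower, against 31.6% of all genes, with a median of 0.015 against -0.033. With both, 5 of 7 were called, Per1, Per2 and Cry1 higher and Bhlhe40 and Nr1d2 lower, against 49.0% of all genes, with a median of 0.42 against -0.041. With IL-4, 1 of 9 was called, Bhlhe41 lower, against 10.3% of the 10556 genes tested, with a median of 0.052 against 6.0e-04. Since these contrasts chose the genes, nothing is read from these counts or from whether a call holds, and Bhlhe41 passed its filter through libraries d to f, where it was high.

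The stimulated groups were also compared with each other, and the responses with each other. All 6 of these comparisons are differences between the contrasts that chose the genes, so they are given as a description, without p, and nothing is read from their counts. The first comparison, IFN-γ plus E. coli against IFN-γ, asks what the bacteria added to cells given IFN-γ. Of 7 genes tested, 0 were called by edgeR or DESeq2, while 12.2% of all genes were called; the median log2 difference was 0.093 against 0.0055 over all genes. Bhlhe40 differed by 0.051 ± 0.12 and Per1 by 0.093 ± 0.21, with overlapping groups for both. Per2, at 0.59 ± 0.24, Nr1d2, at -0.51 ± 0.23, and Cry1, at 0.34 ± 0.19, also overlapped.

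Comparing IFN-γ plus E. coli with E. coli asks what IFN-γ added to cells given bacteria. Of 7 genes 2 were called, against 32.8% of all genes, and the median log2 difference was 0.36 against -0.018. Per1 rose by 1.59 ± 0.23, all 3 libraries with both lying above all 3 with E. coli. Bhlhe40 fell by 0.82 on the log2 scale (SE 0.12), again with no overlap. Cry1, at 0.46 ± 0.19, Nr1d2, at 0.45 ± 0.24, and Per2, at 0.36 ± 0.23, were also higher in all 3 libraries with both.

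The interaction term asks whether the joint response departed from the sum of the separate log2 responses. Of 7 genes 0 were called by edgeR or DESeq2, against 4.62% of all genes, with a median of 0.14 against 0.0042. Per1 was at -0.77 ± 0.36 and Bhlhe40 at -0.20 ± 0.17.

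The IL-4 response was compared with each other response as a difference of log2 fold changes, each against unstimulated libraries of its own set. For this 10671 genes were tested over all 18 libraries, 9 of the 10 among them, Nr1d1 being filtered out. Against the E. coli response 0 of 9 were called by edgeR or DESeq2, against 28.1% of all genes, with a median of -0.10 against 0.036. Bhlhe41 differed by -1.65 ± 0.67 and Nr1d2 by 0.69 ± 0.29. Leaving out library e gave 1 called gene instead of 0, and these differences are not given without it.

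Against the IFN-γ response 2 of 9 were called, against 27.8% of all genes, with a median of -0.29 against 0.021. For Bhlhe41 the difference of the IL-4 response was -2.90 ± 0.59 and for Per1 -1.94 ± 0.34, or -2.87 and -1.82 without library e. Against the response to both stimuli 3 of 9 were called, against 39.2% of all genes, with a median of -0.43 against 5.0e-04. Here Bhlhe41 differed by -3.49 ± 0.56, Per1 by -2.06 ± 0.34 and Cry1 by -0.88 ± 0.29, or -3.46, -1.94 and -0.62 without library e. For Bhlhe41 all 3 IL-4 libraries lay below libraries d to f, while the IFN-γ groups overlapped libraries a to c. For Per1 no stimulated group overlapped its own unstimulated libraries. Bhlhe41 failed the filter of the 12-library set and passed that of the IL-4 set through libraries d to f, where it was high, so its differences are conditioned on them.

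**Figure D2:**
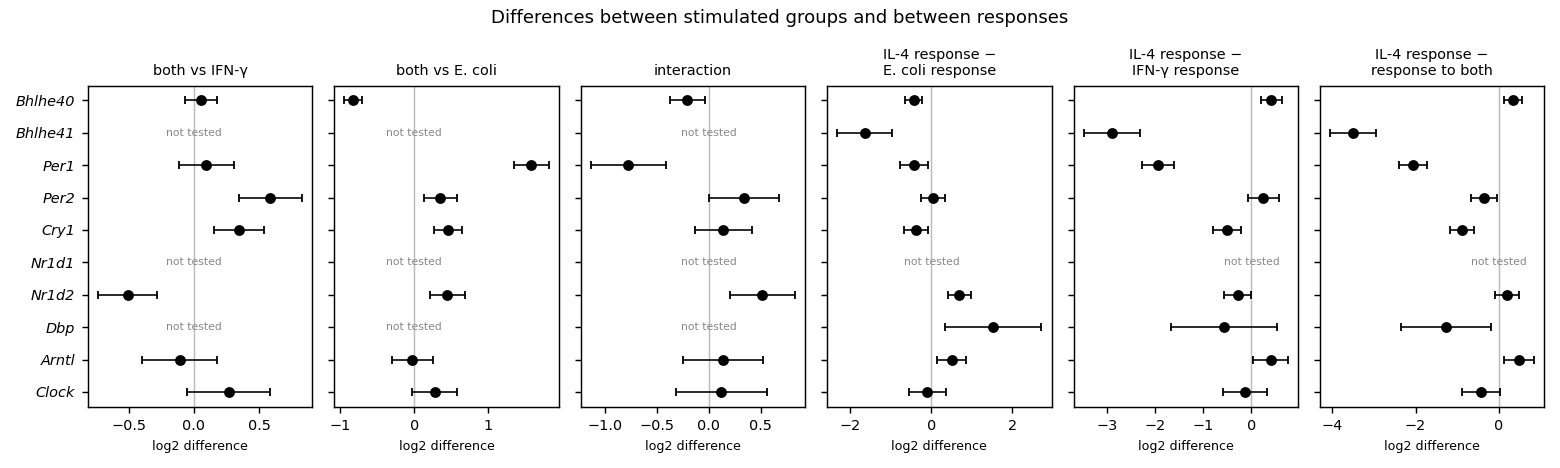
Log2 difference ± SE (horizontal axis) of the 10 genes (vertical axis) in the 6 comparisons between stimulated groups or between responses, where genes that failed the filter, Nr1d1 in all 6 and Bhlhe41 and Dbp in 3, are marked as not tested. Per1 (1.59) and Bhlhe40 (-0.82) part to opposite sides when IFN-γ is added to E. coli, and Bhlhe41 and Per1 lie below 0 in the IL-4 response against the IFN-γ response.

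A list of 21 other clock genes, of which 13 were tested in the 12-library set and 15 in the IL-4 set, was examined with the same tests. With E. coli 2 of 13 were called, 1 higher and 1 lower, and with IFN-γ 4 of 13, all higher. With both stimuli 6 of 13 were called, 5 of them higher, and with IL-4 2 of 15, both higher, or 1 without the first or the third IL-4 library. The percentages over all genes are those given above for each comparison. The counts include Usp2 with E. coli and with both, and Ciart with IFN-γ and with both. These genes passed the filter of the 12-library set only through groups where they were high. Nothing is therefore read from those counts or from the medians of that set. The median log2 fold changes were 0.16 against -0.024 over all genes with E. coli, 0.17 against -0.033 with IFN-γ, 0.11 against -0.041 with both and -0.091 against 6.0e-04 with IL-4.

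Nfil3, a repressor at D-boxes that opposes Dbp, read 101, 133 and 128 normalized CPM in libraries a to c, which had no stimulus, 174, 169.9 and 171 with E. coli, 220.0, 266 and 264 with IFN-γ and 330.1, 305 and 348 in the combined group. The 4 groups stood in this order without overlap. Nfil3 rose by 0.52 ± 0.12 with E. coli (adjusted p 0.00310), 1.06 ± 0.12 with IFN-γ (adjusted p 2.04e-06) and 1.45 ± 0.12 with both (adjusted p 1.42e-08), each time in 3 of 3 libraries. It also rose from E. coli to both by 0.93 ± 0.12 (adjusted p 5.17e-06). From IFN-γ to both it rose by 0.39 ± 0.12 (adjusted p 0.0351), a call lost without any 1 of the 6 libraries, with values from 0.30 to 0.44. In the IL-4 set it read 127, 153 and 109 normalized CPM unstimulated and 155, 161 and 168 with IL-4. The log2 fold change was 0.31 ± 0.14 (adjusted p 0.199), with no overlap, and 0.45 (adjusted p 0.0150) without library e.

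Ciart, whose product CHRONO represses CLOCK and BMAL1, lies on chromosome 3, 95878503-95882251, minus strand. It had 2, 3 and 2 counts in libraries a to c, 5, 7 and 3 with E. coli, 20, 32 and 18 with IFN-γ and 29, 52 and 50 in the combined group. The libraries with IFN-γ read 11.2, 16.4 and 11.8 normalized CPM and those with both 21.2, 28.5 and 33.0, all above the other libraries of the set. The ratio of summed counts over unstimulated cells was 12.7 (95% interval 5.84 to 32.7) with IFN-γ and 26.5 (95% interval 12.5 to 67.3) with both, and that of both over E. coli alone was 13.8 (95% interval 8.09 to 25.4). Ciart passed the filter through the 2 groups with IFN-γ. Its differences from the unstimulated and the E. coli libraries are therefore conditioned on those groups, and no p is given for these ratios. Both stimuli gave more than IFN-γ alone in all 3 libraries, by 1.06 ± 0.25 (adjusted p 0.00859), a call lost without the first IFN-γ library, at 0.95. In the IL-4 set Ciart read 3.61, 1.66 and 4.34 normalized CPM unstimulated and 12.7, 5.32 and 9.59 with IL-4, without overlap. Its log2 fold change of 1.54 ± 0.44 (adjusted p 0.0516) was not called, and it was 1.18 without library e.

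Usp2, a deubiquitinating enzyme acting on clock proteins, read 7.82, 5.70 and 10.7 normalized CPM in libraries a to c, 3.67, 3.68 and 2.47 with E. coli, 8.96, 8.71 and 9.81 with IFN-γ and 3.65, 3.29 and 4.62 in the combined group. The groups with bacteria lay below the others. Usp2 passed the filter of that set through its unstimulated and IFN-γ groups, so its differences from them are conditioned on the filter. It fell by 1.30 on the log2 scale with E. coli (SE 0.33) in 3 of 3 libraries and fell by 1.10 with both (SE 0.36), given without p for that reason. The last fall was no longer called without library c or the second library given both, at -0.85 and -0.98, or with DESeq2, at -1.08. In the IL-4 set the direction was the other one: Usp2 read 3.89, 1.49 and 5.85 normalized CPM in libraries d to f and 18.6, 16.9 and 23.6 with IL-4. It rose by 2.41 ± 0.39 (adjusted p 0.00352) in 3 of 3 libraries, and by 1.96 without library e. Usp2 was over the filter of the IL-4 set in 2 of 3 unstimulated and 3 of 3 IL-4 libraries. It thus passed with the help of the group where it was high, which limits that p. The IL-4 response exceeded that to E. coli by 3.69 ± 0.51, that to IFN-γ by 2.23 ± 0.49 and that to both by 3.45 ± 0.53, or 3.25, 1.79 and 3.01 without library e, also given without p. On the opposite strand, exons of another gene overlap Csnk1e by 267 bases, Usp2 by 200 bases, Tef by 193, Timeless by 111 and Csnk1d by 63, and the limit given above for such counts holds for these genes too.

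Noct, which encodes nocturnin, an enzyme with a marked daily rhythm, read 181, 159.7 and 163 normalized CPM in libraries a to c, 210.5, 215 and 199 with E. coli, 152, 229.6 and 195 with IFN-γ and 339.6, 352 and 253 in the combined group. The group with both stimuli was above all others. Noct rose by 0.91 ± 0.14 with both (adjusted p 3.96e-05), and exceeded E. coli alone by 0.59 ± 0.14 (adjusted p 0.00318) and IFN-γ alone by 0.71 ± 0.14 (adjusted p 0.00269), each in 3 of 3 libraries.

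The products of the next genes mark PER proteins for removal. Csnk1d, a casein kinase gene, rose by 0.29 ± 0.10 with IFN-γ (adjusted p 0.0321) and 0.45 ± 0.10 with both (adjusted p 0.00111), in 3 of 3 libraries each. The IFN-γ call was lost without library a, library c or the second or the third IFN-γ library, with values from 0.27 to 0.32. Fbxw11, an F-box gene, rose by 0.46 ± 0.13 with IFN-γ (adjusted p 0.00956) and 0.51 ± 0.13 with both (adjusted p 0.00258), with no overlap. Csnk1e, the sister kinase gene, read 222, 251 and 217 normalized CPM in libraries d to f and 347, 335 and 337 with IL-4. It rose by 0.56 ± 0.11 (adjusted p 0.0106) in 3 of 3 libraries, and by 0.63 (adjusted p 5.35e-04) without library e. That call was lost without any 1 of the 3 IL-4 libraries, which left 2, at 0.56, 0.56 and 0.56.

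In the direct comparisons, 4 of 13 other clock genes were called between both stimuli and IFN-γ, against 12.2% of all genes, with Nfil3, Ciart and Noct higher and Usp2, with its filter as given above, lower at -1.24 ± 0.37, in 3 of 3 libraries. The 4 calls became 1 without the first IFN-γ library and 2 without either other IFN-γ library or without the first or second library given both. The Usp2 call was lost without any 1 IFN-γ library or the first or second library given both, with values from -1.29 to -1.13. That call was also lost with DESeq2, at -1.25, and with no low-count filter, at -1.27. Between both stimuli and E. coli 4 of 13 were called, against 32.8% of all genes, all higher: Nfil3, Noct, Ciart, whose filter is given above, and, by 0.29 ± 0.10 (adjusted p 0.0300), Csnk1d. The Csnk1d call was lost without any 1 E. coli library or the second or the third library given both, with values from 0.24 to 0.32. For the interaction 0 of 13 were called by edgeR or DESeq2, against 4.62% of all genes, and 0 had an unadjusted p under 0.05. The IL-4 response differed from that to E. coli for 4 of 14, from that to IFN-γ for 7 of 14 and from that to both for 8 of 14, against 28.1%, 27.8% and 39.2% of all genes. These counts include Usp2, Timeless and Ciart, which passed the filter of the 12-library set only through the groups where they were high, and no p is given for them here. The 7 became 3 without library a and 4 without library e or the second IFN-γ library, and the 4 became 2 without library a, library e, the first E. coli or the second IL-4 library. Usp2, Csnk1e and Timeless, a gene of DNA replication with a debated clock role, were higher in the IL-4 response in all 3 comparisons. For Csnk1e the differences were 0.63 ± 0.15 against E. coli (adjusted p 0.00314), 0.56 ± 0.15 against IFN-γ (adjusted p 0.00780) and 0.58 ± 0.15 against both (adjusted p 0.00413), and 0.69, 0.62 and 0.64 without library e. For Timeless they were 1.69 ± 0.55, 1.72 ± 0.57 and 1.62 ± 0.57, or 1.35, 1.39 and 1.29 without library e. Timeless passed the filter of the 12-library set through unstimulated libraries a to c alone, and each of its 3 calls was lost without library a, library e or the second IL-4 library, with differences down to 1.29. Further losses came without the first E. coli library, the first or second IFN-γ library, or the first or second library given both. Nfil3 was lower in the IL-4 response, at -0.78 ± 0.18 (adjusted p 0.00299) against IFN-γ and -1.19 ± 0.18 (adjusted p 2.33e-05) against both, or -0.64 and -1.06 without library e. Ciart was lower in it, at -2.08 ± 0.67 and -3.17 ± 0.64, or -2.45 and -3.54 without library e, and the first of these calls was lost without library a, c or f or the second IFN-γ library. Csnk1d was lower at -0.44 ± 0.14 (adjusted p 0.0236) and -0.62 ± 0.14 (adjusted p 0.00137), or -0.38 and -0.56 without library e, the first lost without library a, library e or the second IFN-γ library. Noct was lower at -1.33 ± 0.24 (adjusted p 1.70e-04) against both, -1.17 without library e, and at -0.69 ± 0.24 (adjusted p 0.0380) against E. coli, a call lost without 8 of the 12 libraries of that comparison, from -0.74 to -0.54. Without library e the Noct difference against E. coli was -0.54. Tef, a D-box activator, was lower at -0.77 ± 0.28 (adjusted p 0.0449) against IFN-γ, a call lost without 8 of the 12 libraries of that comparison, from -0.82 to -0.38. The Tef difference without library e was -0.38. Against both, Fbxw11 was lower at -0.63 ± 0.22 (adjusted p 0.0249), lost without library b, library e, the third library given both or the first or the third IL-4 library, from -0.60 to -0.41. The Fbxw11 difference without library e was -0.41.

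Per3, the period gene outside the 10, had 24, 7 and 12 counts in libraries a to c, 1, 12 and 7 with E. coli, 2, 3 and 2 with IFN-γ and 5, 1 and 2 in the combined group. It was untested in that set, and the ratio of unstimulated over IFN-γ counts was 4.84 (95% interval 2.16 to 12.8). Of the 43 unstimulated counts, 24 came from library a, so this ratio rests largely on a single library. Per3 was 1 of 8 of the 21 that failed the filter there.

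**Figure D3:**
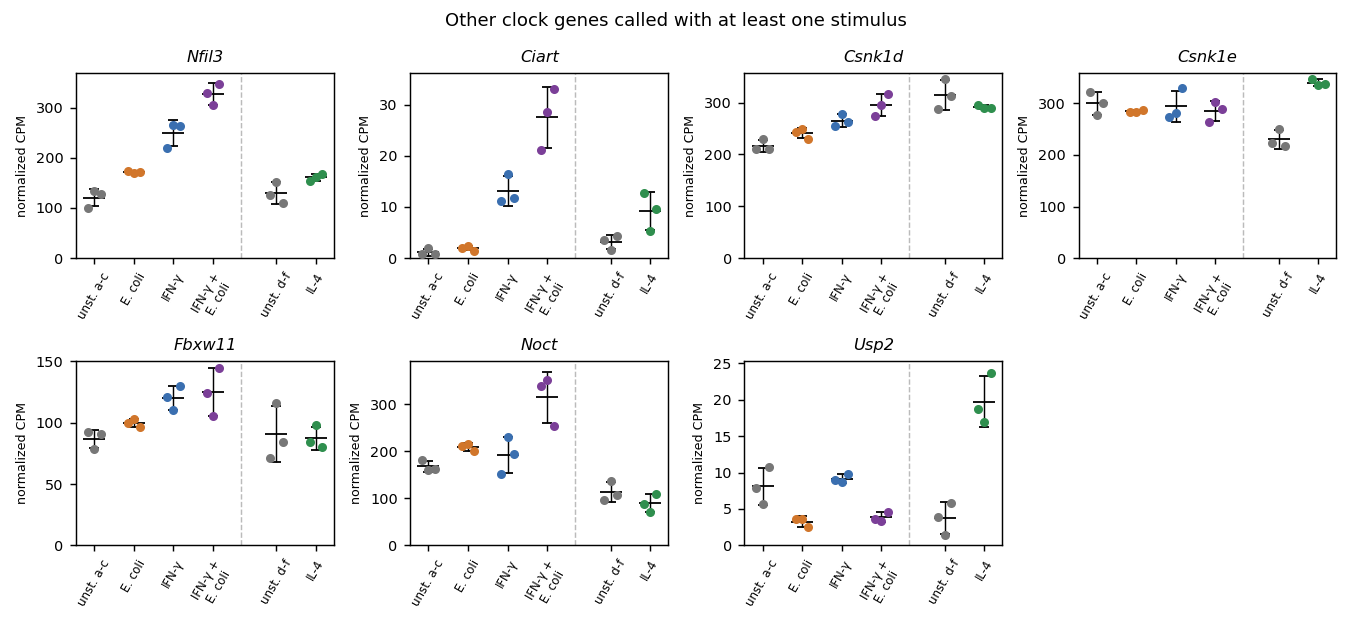
Normalized CPM (vertical axis, from 0) of the 7 other clock genes called with any stimulus in each library of the 6 groups (horizontal axis), with points for libraries and bars for the mean ± SD of 3 libraries; the dashed line parts the 2 sets. Ciart reaches 21.2 to 33.0 with IFN-γ plus E. coli against 0.745 to 1.90 in unstimulated libraries a to c, and Usp2 reaches 16.9 to 23.6 with IL-4.

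For each of the 7 genes tested in the 12-library set, the gene with the most similar pattern was found by Pearson's r of log2 CPM over its 12 libraries, which share groups and control libraries. For Per1 it was Pgm1, with r 0.977, whose mean log2 CPM were 5.38, 6.38, 8.30 and 8.59 in the unstimulated, E. coli, IFN-γ and combined groups against 2.96, 3.80, 5.23 and 5.28 for Per1. For Bhlhe40 it was Ap1b1, with r 0.959 and means of 6.00, 6.06, 5.69 and 5.66. For Nr1d2 it was Ppm1k, with r 0.914 and its mean lowest with E. coli like Nr1d2. Per2 was closest to Scaf8 (r 0.958), Cry1 to Nrf1 (r 0.927), Clock to Prrc2c (r 0.923) and Arntl to Adamtsl4 (r 0.767). These values are a description, given without a test.

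Promoter sequences came from RefSeq on GRCm38.p6, in windows of 250 bases before to 50 after each gene's start. Of the 10 genes 8 matched, with 12 windows, and Bhlhe40 and Per2 had no entry. Of the 21 other clock genes 16 matched, with 21 windows. The E-box CACGTG, the same on both strands, was in 2349 of 32851 windows, or 7.15%. It was in 3 of the 12 windows, those of Bhlhe41, Cry1 and Per1, and in 3 of the 21, namely those of Ciart and Tef. On either strand TGACG, the core of the cyclic AMP element, was in 25% of the 12 windows and 20.8% of all, and AGGTCA, the REV-ERB and ROR motif, in 33.3% and 16.3%. The D-box TTANGNAA was in 16.7% and 11.5%, and TTCNNNGAA, the STAT motif, in 16.7% and 8.30%. Of the 21 windows of the other clock genes, 38.1% held TGACG, 4.76% AGGTCA, 19.0% the D-box and 0 the STAT motif. A match is a description of letters and not a bound site. Stretches with an E-box outside annotated exons are shown for Ciart and for the 3 of the 10 genes, since their windows hold the clock's own element. They lie at chr3:95882252-95882371, minus strand, for Ciart, at chr6:145865559-145865600, minus strand, for Bhlhe41, at chr10:85185082-85185141, minus strand, for Cry1, and at chr11:69098756-69098815, plus strand, for Per1, which lies inside the gene as annotated, before a start within it. Each is written 5′ to 3′ on the gene's strand with the E-box in capitals, and the stretch of Ciart holds 3 of them.
Ciart: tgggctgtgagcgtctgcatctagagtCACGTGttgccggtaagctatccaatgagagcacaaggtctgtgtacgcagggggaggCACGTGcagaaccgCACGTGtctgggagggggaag
Bhlhe41: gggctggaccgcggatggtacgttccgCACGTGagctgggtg
Cry1: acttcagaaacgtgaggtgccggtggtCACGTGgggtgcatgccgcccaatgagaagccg
Per1: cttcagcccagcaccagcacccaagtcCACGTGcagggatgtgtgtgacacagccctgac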

How the data were processed

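Each of 18 libraries holds one deposited count per Ensembl gene on GRCm38, raw and without normalization; the submitters' processing notes name fastp 0.20.1, STAR 2.7.2a, TopHat2 2.1.0 and HTSeq 0.6.1 without saying which was used for which libraries, and collapsing of molecular identifiers is not stated. The deposited counts that fell on no gene, 21.1% to 39.4% of a library with E. coli, IFN-γ or their controls, were left out. Symbols were matched to 98.3% and 99.7% of the gene identifiers of the 2 sets. Libraries on genes held 1523808 to 6482289 counts, and the floor was 3 counts per library.

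edgeR 4.0.16 in R 4.3.3 was fitted with TMM factors, filterByExpr and quasi-likelihood tests to the 12-library set of E. coli, IFN-γ and their controls, the 6 of the IL-4 set, and all 18 for differences between responses. P-values were Benjamini-Hochberg adjusted over all genes tested and called under 0.05. Standard errors were derived from the F statistic and are approximate. Ratios of summed counts have exact 95% intervals. Alternatives were DESeq2 1.42.0 or its size factors, no filter or at least 10 counts in all libraries, calling only changes of a factor of 2 or more, the 6 libraries compared alone, all 6 unstimulated libraries together, a replicate block, and leaving out each library. A correction for a ceiling of 4096 codes per gene was chosen after seeing the data.

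Genes were named by this rule: the 10 clock and DEC genes, genes of a list of 21 other clock genes when called or when the closest relative of one of the 10, 7 REV-ERB targets, the gene most correlated with each of the 7 tested in the 12-library set, and cell type markers. The 10 genes and the lists were chosen with earlier results of these data known. Results of some list genes are not reported here.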

Additional observations from a re-analysis of the deposited data

How the results depend on the processing

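Of 74 called log2 fold changes, 45 kept their direction and their call under every alternative run for them; of their 1019 alternative values 118 lost the call, and 5 of these changed sign. Among the log2 fold changes without a call whose alternative values were kept one by one, 4 values gained a call. The counts of called genes given below hold further gains. All 5 sign changes came with all 6 unstimulated libraries as a single group: Per1 with E. coli -0.17, Csnk1d with IFN-γ -0.23 and with both -0.044, and Ccl2 with E. coli -0.27 and with both -0.28; this pools libraries of both sets, whose levels are not comparable. Calls of the 10 genes against unstimulated cells, and in the differences between those contrasts, follow their choice and are listed without support for any result. Under it the other clock genes called were 0 instead of 2 with E. coli and 5 instead of 2 with IL-4.

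Requiring at least 10 counts in every library tests fewer genes. It gave 1 of the 10 genes called instead of 2 with E. coli, with IFN-γ, for both against E. coli and for the IL-4 against the IFN-γ response, 0 instead of 1 with IL-4, and 1 instead of 0 for the IL-4 against the E. coli response. For the other clock genes it gave 1 instead of 2 with E. coli, 2 instead of 4 with IFN-γ and for both against IFN-γ, 1 instead of 4, 2 instead of 7 and 4 instead of 8 for the IL-4 response against those to E. coli, IFN-γ and both. With no filter, both against IFN-γ gave 2 of the other clock genes instead of 4; the cause was not tested.

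Asking for a change by a factor of 2 left 1 of the 10 genes with E. coli, IFN-γ and both, and of the other clock genes 1, 2, 3 and 1 with E. coli, IFN-γ, both and IL-4, and 2 of the 4 REV-ERB targets with IL-4. DESeq2 called 3 of the 10 with both instead of 5; the cause was not tested.

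Leaving out 1 library at a time leaves fewer samples. The 10 genes then gave 1 to 3 calls with E. coli, 3 to 5 with both, 0 to 1 for both against IFN-γ, 2 to 3 for both against E. coli, 0 to 1, 2 to 3 and 2 to 3 for the IL-4 response against those to E. coli, IFN-γ and both, and 2 and 1 throughout with IFN-γ and IL-4. The other clock genes gave 2 to 2 with E. coli, 3 to 5 with IFN-γ, 5 to 7 with both, 1 to 3 with IL-4, 1 to 3 for both against IFN-γ, 3 to 4 for both against E. coli, and 2 to 4, 3 to 9 and 6 to 9 for the IL-4 response against those to E. coli, IFN-γ and both. REV-ERB targets gave 4 to 5, 3 to 4, 4 to 4 and 4 to 4.

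A replicate block, fitted to the 9 stimulated libraries alone with 9456 genes tested, called 0 of the 10 genes for both against IFN-γ and 2 for both against E. coli, as without it. Over all genes it called 1430.0 and 3447, and the fit of 12 libraries 1209 and 3240.0 of 9883, so the block is not the only difference between these fits. In the pairs of groups examined, 3 libraries per group were too few to decide whether the replicate numbers pair the samples. Libraries of the same number in IFN-γ and both correlated at -0.0450, 0.212 and 0.331 after group means were removed. Those in E. coli and both correlated at 0.0706, 0.0986 and 0.163, and not every library correlated best with its own number. Other pairs of groups, those with unstimulated or IL-4 libraries among them, were not examined. Depth limits Bhlhe41, Nr1d1 and Dbp, which had 0 to 19 counts in the 12-library set.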
